A study of Mus musculus with 204 samples.

Results

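The collagen genes described here are the 44 of 49492 gene rows whose symbol has the form of a collagen alpha chain (Col, a number, a, a number). The rule reads only the symbol and no measured value, and the genes were followed across every picked cell. Other genes with a collagenous stretch but another kind of name were not included. The tissue was distal colon, taken from VGLUT2-tdTomato mice, whose red tdTomato fluorescence reports Slc17a6, the gene of the vesicular glutamate transporter VGLUT2. The muscle layers that hold the myenteric plexus, the nerve network that drives gut movement, were dissociated and kept in culture overnight, and red cells were drawn up by hand into separate lysis tubes. Polyadenylated RNA of each cell was sequenced, with 66 cells from each of plates 1 and 2 and 72 from plate 3. The labels name no treatment, age, sex, animal or culture, and whether the reporter marks present or past Slc17a6 expression was not examined. A plate was therefore counted as 1 sample without replicates, and no p-value was computed. The column names of the data end in P1 for plate 1 and in P2 for both plates 2 and 3, whose sample numbers run on from one to the other. What P1 and P2 stand for is not stated, so plates 2 and 3 may not be separate samples to the same degree as plate 1.

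Collagens are secreted or membrane proteins in which 3 alpha chains wind into a triple helix. Fibrillar collagens such as types I, III and V build tensile fibers, type IV forms the sheet of basement membranes, type VI forms beaded microfibrils around cells, and fibril-associated and multiplexin collagens link these networks to each other. Smooth muscle cells, fibroblasts, endothelial cells and glia of the gut wall are known producers of this matrix, whereas neurons are usually described as lying against it.

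The cells had between 453035 and 14310625 reads on genes. CPM below is reads per 1000000 assigned reads of the cell, and a transcript was counted as detected at 10 CPM. A cell carried a marker list where at least 50% of its genes were detected, and no collagen was in any list. All cells are labelled as neurons, but 51 of them (25.0%) did not carry the list of 13 pan-neuronal genes. Of the others, 108 carried no list of another cell type and are called neuron-only (35, 31 and 42 on plates 1, 2 and 3), and 45 carried at least 1 such list (19, 14 and 12). The 51 cells without the neuronal list lay on plates 1, 2 and 3 in numbers of 12, 21 and 18. The smooth muscle list was found in 37 of the 45 and in 32 of the 51. Median depth was 4428392 reads in neuron-only cells, 3160110 in neuronal cells with another list and 3988849 in cells without the neuronal list. Reads and not molecules were counted. The exact (Clopper-Pearson) 95% intervals below treat cells pooled over plates as independent draws. They cover the counting error of cells only, and not differences between animals, cultures or plates.

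All 44 collagens reached 10 CPM in at least 1 cell. Neuron-only cells held little collagen RNA in sum, with a median of 129.6 CPM over the 44 genes (lowest 0, highest 1738) and a median of 3 collagens detected. Neuronal cells that also carried another list had a median of 614.8 CPM (19.6 to 3406) and 9 collagens. Cells without the neuronal list had a median of 1428 CPM (1.67 to 5232) and 9 collagens. The medians of neuron-only cells were 143.7, 201.1 and 95.2 CPM on plates 1, 2 and 3, and those of cells without the neuronal list were 1093, 1428 and 1620 CPM. The order held on each plate, although the ranges of the classes overlapped widely.

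**Figure D1:**
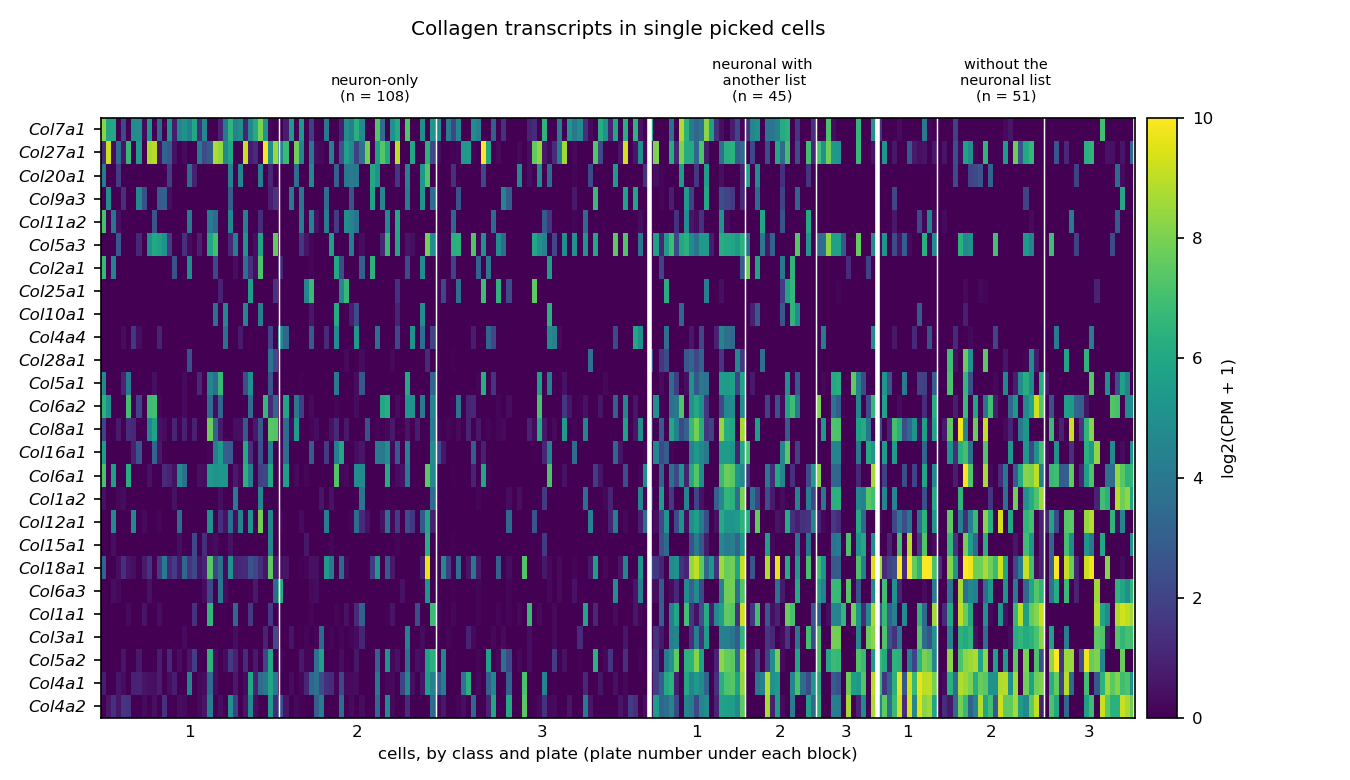
Collagen transcripts in every cell as log2(CPM + 1), with 26 collagens as rows and cells as columns, sorted by class, then plate (number under each block), then smooth muscle marker level. Col7a1 and Col27a1 fill scattered columns among the 108 neuron-only cells on the left, while Col4a1, Col4a2 and Col18a1 fill most columns among the 51 cells on the right.

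The make-up of the collagen RNA also differed between the classes. Per kilobase of exon (RPKM), fibrillar collagens gave 39.4% of the collagen RNA of neuron-only cells and 22.0% of that of the class without neuronal markers. Type IV chains gave 6.40% and 24.8%, and the multiplexins Col15a1 and Col18a1 gave 7.26% and 26.1%. On the same scale the level of Col27a1 was highest in neuron-only cells (mean 6.49 RPKM), followed by Col6a1 (3.02), Col5a3 (3.00), Col7a1 (2.40) and Col18a1 (2.26). In cells without the neuronal list the order was Col18a1 (49.3 RPKM), Col4a2 (26.2), Col4a1 (25.5), Col6a1 (18.4) and Col1a1 (17.5). The summed mean of the fibrillar collagens was 132.3 CPM in neuron-only cells and 397.9 CPM in cells without the neuronal list. Their share and not their level was thus higher in neuron-only cells, where Col27a1 was the highest of that family. Without plate 2 cell 9, left out after the data were seen, the multiplexin share of neuron-only cells was 4.07% and the mean of Col18a1 there 1.22 RPKM, which put it at rank 8. Neighbours in these orders, such as Col4a2 and Col4a1, differed by less than their spread over cells.

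The promoters of 4 collagens are printed because the results turn on them: Col7a1 and Col27a1, which were found in more neuron-only cells than any other collagen, and Col4a1 and Col4a2, which were found in most cells without the neuronal list and are transcribed in opposite directions from neighbouring start sites. Sequences are from RefSeq (GRCm38.p6), 5′ to 3′ on the strand of the gene, from 250 bases before to 50 bases after the start. Capitals mark matches on either strand to the CCAAT box, searched as its letters CCAAT, to the GC box, searched as GGGCGG, and to the TATA box, searched as TATAAA.
Col7a1: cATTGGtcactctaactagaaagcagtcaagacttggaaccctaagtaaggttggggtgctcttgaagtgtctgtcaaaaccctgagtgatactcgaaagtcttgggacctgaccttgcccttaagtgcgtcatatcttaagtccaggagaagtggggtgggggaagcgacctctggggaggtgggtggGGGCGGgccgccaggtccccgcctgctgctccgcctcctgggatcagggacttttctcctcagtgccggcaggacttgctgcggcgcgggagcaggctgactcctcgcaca
Col27a1: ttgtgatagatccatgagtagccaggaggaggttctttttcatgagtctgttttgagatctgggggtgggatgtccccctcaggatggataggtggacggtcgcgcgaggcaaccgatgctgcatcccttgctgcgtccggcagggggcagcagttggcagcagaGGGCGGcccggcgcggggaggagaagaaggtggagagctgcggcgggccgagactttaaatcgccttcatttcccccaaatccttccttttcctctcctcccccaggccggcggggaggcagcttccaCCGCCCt
Col4a1: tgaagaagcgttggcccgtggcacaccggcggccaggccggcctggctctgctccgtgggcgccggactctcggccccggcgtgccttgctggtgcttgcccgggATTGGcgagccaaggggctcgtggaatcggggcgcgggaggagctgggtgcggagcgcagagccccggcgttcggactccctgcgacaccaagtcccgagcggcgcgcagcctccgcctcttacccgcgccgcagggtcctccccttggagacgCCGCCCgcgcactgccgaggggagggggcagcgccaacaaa
Col4a2: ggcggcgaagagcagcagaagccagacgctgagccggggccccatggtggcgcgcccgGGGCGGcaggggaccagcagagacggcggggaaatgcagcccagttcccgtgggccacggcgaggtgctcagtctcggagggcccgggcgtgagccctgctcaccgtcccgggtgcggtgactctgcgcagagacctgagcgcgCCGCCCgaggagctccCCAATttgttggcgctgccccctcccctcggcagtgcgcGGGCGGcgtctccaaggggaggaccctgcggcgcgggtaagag
These windows are chr9:108953336-108953635 (plus strand), chr4:63215162-63215461 (plus), chr8:11312777-11313076 (minus) and chr8:11312555-11312854 (plus). The RefSeq start used for Col27a1 lies inside the gene's GENCODE M21 span, downstream of its annotated start there. The last pair share 78 bases, chr8:11312777-11312854. No window among the 4 held TATAAA on either strand, and each held at least 1 GC box. Of the 38 windows of 35 collagen genes found in the table, 60.5% held a GC box, 34.2% a CCAAT box and 13.2% a TATA box, against 35.7%, 37.4% and 13.6% of all 32851 windows of that length. These matches describe letters only.

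The first comparison asked which collagen transcripts went with neurons and which with the other picked cells. For each gene the mean CPM of neuron-only cells was set over that of cells without the neuronal list, on each plate, as a log2 ratio of mean (CPM + 1). A difference was called where the ratio passed a log2 size of 1 in the same direction on all 3 plates. Of the 44 collagens, 28 had a mean of at least 1 CPM in either class on each plate and could be compared. In neuron-only cells 9 of the 28 were lower, or 32.1%, against 8.46% of all 15373 genes compared. These were Col4a1, Col4a2, Col18a1, Col15a1, Col3a1, Col1a1, Col1a2, Col5a2 and Col6a3. A further 5 of 28 (17.9%) were higher in neuron-only cells, namely Col7a1, Col20a1, Col2a1, Col25a1 and Col10a1. Since 19.9% of all genes were higher there, this share was near the background. The median of the mean ratios was -1.54 over the collagens and 0.40 over all genes.

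**Figure D2:**
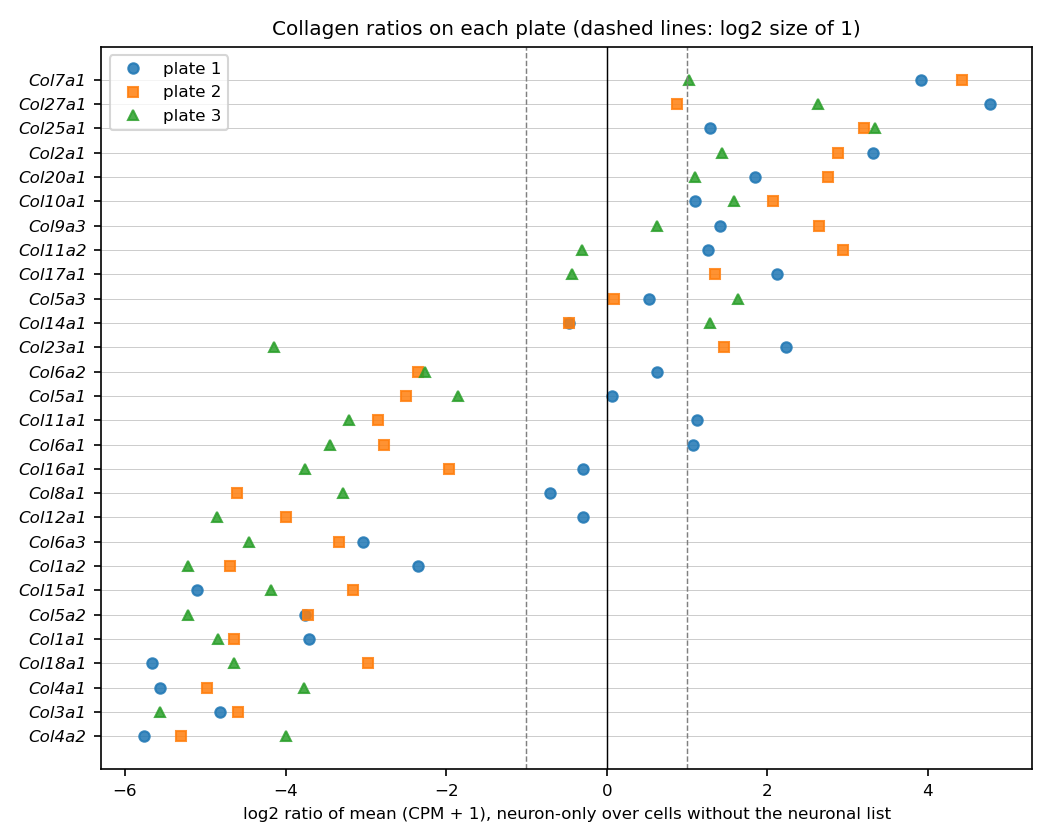
Log2 ratio of mean (CPM + 1), neuron-only cells over cells without the neuronal list, for the 28 collagens compared, with 1 symbol per plate and dashed lines at a log2 size of 1. The 9 collagens at the foot lie left of the lower line on every plate, whereas the lowest plate ratio of the 5 called higher lies between 1.03 for Col7a1 and 1.44 for Col2a1.

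Basement membrane chains were among those that lay farthest below 0. Col4a1 and Col4a2 encode the paired chains of the common type IV collagen of nearly all basement membranes. Col4a1 was detected in 39 of 51 cells without the neuronal list (76.5%, interval 62.5 to 87.2%), with a median of 102.9 CPM and a highest value of 808.5. In neuron-only cells it was detected in 18 of 108 (16.7%, 10.2 to 25.1%), with a median of 0.179 and a highest value of 138.7 CPM. Its log2 ratios were -5.56, -4.98 and -3.77 on plates 1, 2 and 3. Col4a2 was detected in 36 of 51 and 11 of 108 cells, with medians of 82.2 and 0.111 CPM and ratios of -5.77, -5.30 and -4.00. The classes overlapped for both genes, because some neuron-only cells reached levels common in the other class.

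Of the other type IV chains, which occur in more specialised basement membranes, only Col4a4 was detected in at least 10% of a class that the naming rule used. It was found in 11 of 108 neuron-only cells and 2 of 51 cells without the neuronal list, with means of 3.19 and 0.886 CPM. Its neighbour Col4a3 was detected in 6 of all cells, Col4a5 in 4 and Col4a6 in 3.

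Col18a1, a multiplexin of basement membranes whose cleavage releases endostatin, had the highest level per length in cells without the neuronal list. It was detected in 28 of 51 cells without the neuronal list, with a median of 57.1 and a highest value of 3449 CPM. In neuron-only cells it was detected in 17 of 108, with a median of 0.389 and a highest value of 795.7 CPM. The ratios were -5.67, -2.97 and -4.64. Its relative Col15a1 was found in 16 of 51 cells without the neuronal list and in 2 of 108 neuron-only cells (1.85%, interval 0.225 to 6.53%), with ratios of -5.11, -3.16 and -4.18. Col18a1 overlaps Slc19a1 and Col15a1 overlaps Gm12426, each on the opposite strand, and reads of overlapping genes could not be told apart without the strand setting.

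Among fibrillar collagens, the chains of types I and III were rare in neuron-only cells. Col1a1, the main chain of type I collagen of tendon, bone and scar, was detected in 24 of 51 cells without the neuronal list and in 4 of 108 neuron-only cells. By plate, the former had means of 54.0, 125.9 and 141.6 CPM and the latter of 3.21, 4.10 and 3.98 CPM. Col1a2, its partner chain, was detected in 16 and 6 cells of these classes, with ratios of -2.35, -4.69 and -5.21. Col3a1, the type III chain of distensible organs, was detected in 24 and 2 cells, with highest values of 304.4 and 21.2 CPM. Its ratios were -4.82, -4.59 and -5.57. Col5a2, a type V chain that sets fibril diameter, was found in 30 and 12 cells, with ratios of -3.76, -3.72 and -5.22.

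Type VI collagen is built from 3 different chains. Only Col6a3 was called, with 23 of 51 against 5 of 108 cells and ratios of -3.04, -3.34 and -4.45. Col6a1 was detected in 22 of 51 cells without the neuronal list and in 23 of 108 neuron-only cells. Its ratios were 1.08 on plate 1 and -2.77 and -3.45 on plates 2 and 3, so its direction was not the same on all plates. Col6a2 behaved likewise, with 17 of 51 and 19 of 108 cells and ratios of 0.62, -2.35 and -2.27. On plate 1 only 2 of 12 cells without the neuronal list had Col6a1, and those cells were also the fewest of that class on any plate.

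Other matrix collagens had negative ratios on plates 2 and 3, both labelled P2, but did not pass on plate 1, labelled P1. Col12a1, a fibril-associated collagen, was detected in 22 of 51 cells without the neuronal list and 16 neuron-only cells, with ratios of -0.29, -3.99 and -4.86. Col16a1, another of that group, was found in 17 and 15, with ratios of -0.29, -1.96 and -3.76. Col8a1, a short-chain network collagen of vessel walls, was found in 16 and 13, with ratios of -0.71, -4.60 and -3.29. Col5a1, another type V chain, was found in 13 and 11, with ratios of 0.06, -2.50 and -1.85. Col28a1, a collagen of peripheral nerve sheaths, was detected in 7 of 51 cells without the neuronal list and in 2 of 108 neuron-only cells, but it was too low on plate 1 to be compared.

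Leaving out each cell of this comparison in turn, none of the 9 lower calls was lost. The log2 ratio of 4 of the 9 changed by over 1.5 times on some plate. Col6a3 went from -3.04 to -1.61 without cell 57 and Col1a2 from -2.35 to -1.34 without cell 30, both on plate 1. On plate 2, Col15a1 went from -3.16 to -4.92 and Col18a1 from -2.97 to -5.58 without cell 9, a neuron-only cell. All 5 higher calls, in contrast, were lost without some cell.

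Col7a1 (chr9:108953586-108984875, plus strand) was found in more neuron-only cells than any other collagen. It encodes the chain of anchoring fibrils, which fasten basement membranes to the tissue beneath. It was detected in 49 of 108 neuron-only cells (45.4%, interval 35.8 to 55.2%) and in 18 of 45 neuronal cells with another list (40.0%, 25.7 to 55.7%). Among the other 51 cells, 2 had it (3.92%, 0.479 to 13.5%). Its mean on plates 1, 2 and 3 was 36.2, 24.2 and 15.4 CPM in neuron-only cells and 1.46, 0.167 and 7.01 CPM in cells without the neuronal list. The last of these rested on 1 cell at 126.2 CPM, plate 3 cell 45. The log2 ratios were 3.92, 4.43 and 1.03, and the ratio on plate 3 fell to between 0.86 and 0.99 without any 1 of 24 cells but rose to 4.03 without cell 45.

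Col27a1, a fibrillar collagen known from cartilage, was the next most frequent. It was detected in 42 of 108 neuron-only cells (38.9%, interval 29.7 to 48.8%), in 20 of 45 neuronal cells with another list and in 10 of 51 cells without the neuronal list (19.6%, 9.82 to 33.1%). Where present it could be high: the highest cells held 1085, 939.4 and 639.0 CPM, from 4759, 2009 and 3700 reads, and all were neuron-only. The median of neuron-only cells was 0.655 CPM, so most had little or none. Its ratios were 4.77, 0.88 and 2.63, short of the call on plate 2, where 7 of 21 cells without the neuronal list also had it.

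Col5a3, the third type V chain, was detected in 32 of 108 neuron-only cells, 24 of 45 neuronal cells with another list and 10 of 51 cells without the neuronal list. Its ratios of 0.53, 0.09 and 1.63 did not pass, in contrast to those of Col5a2 from the same collagen type. Col20a1 and Col9a3, fibril-associated collagens, were found in 19 and 14 of 108 neuron-only cells and in 1 of 51 cells without the neuronal list each. Col11a2, a type XI chain of cartilage, was found in 16 and 2 cells. The ratios were 1.85, 2.75 and 1.10 for Col20a1, 1.41, 2.64 and 0.63 for Col9a3, and 1.26, 2.94 and -0.31 for Col11a2. In neuron-only cells their means were at most 13.3 CPM on any plate. The Col20a1 call was lost without cell 29, 65 or 67 of plate 3, where the ratio became 0.67, 0.87 and 0.86. With no Col20a1 read on plate 1 in the other class, that ratio depended on the pseudocount. Exon lengths of Col20a1, Col11a2, Col8a1, Col2a1 and Col17a1 were inferred as the smallest that give whole reads, so their CPM may be understated.

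Some collagens were detected in neuronal cells and in no cell without the neuronal list. Besides the 3 described here these were Col19a1, Col26a1, Col6a6, Col6a4, Col4a6, Col6a5 and Col9a1, each detected in 1 to 5 cells in all. The share of all genes with this pattern was not computed, so the pattern does not set these collagens apart from other rare transcripts. Col25a1, a transmembrane collagen that motor neurons need to innervate muscle, was detected in 9 neuron-only cells and 4 neuronal cells with another list. Its highest values were 180.4 and 119.4 CPM, from 2391 and 524 reads. Col2a1, the main cartilage collagen, was detected in 10 and 4 such cells and Col10a1, a collagen of hypertrophic cartilage, in 7 and 2. None of the 3 was detected in the 51 other cells, where the limit for a count of 0, taken as 3 cells of the total and not as the bound of the exact interval, is 5.88%. Col2a1 had no read in any of these 51 cells. The ratios of these 3 genes set low means against values at or near 0 and so depended on the pseudocount. Without plate 1 cell 19 the ratio of Col25a1 there fell from 1.29 to 0.11, and without plate 3 cell 57 those of Col2a1 and Col10a1 there fell from 1.44 to 0.70 and from 1.58 to 0.00. The Col10a1 call was also lost without any 1 of 4 cells on plate 1. Col10a1 lies inside Nt5dc1 on the opposite strand, and 8 of the 9 cells with Col10a1 also had Nt5dc1 at 10 CPM, which 53 cells had alone.

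**Figure D3:**
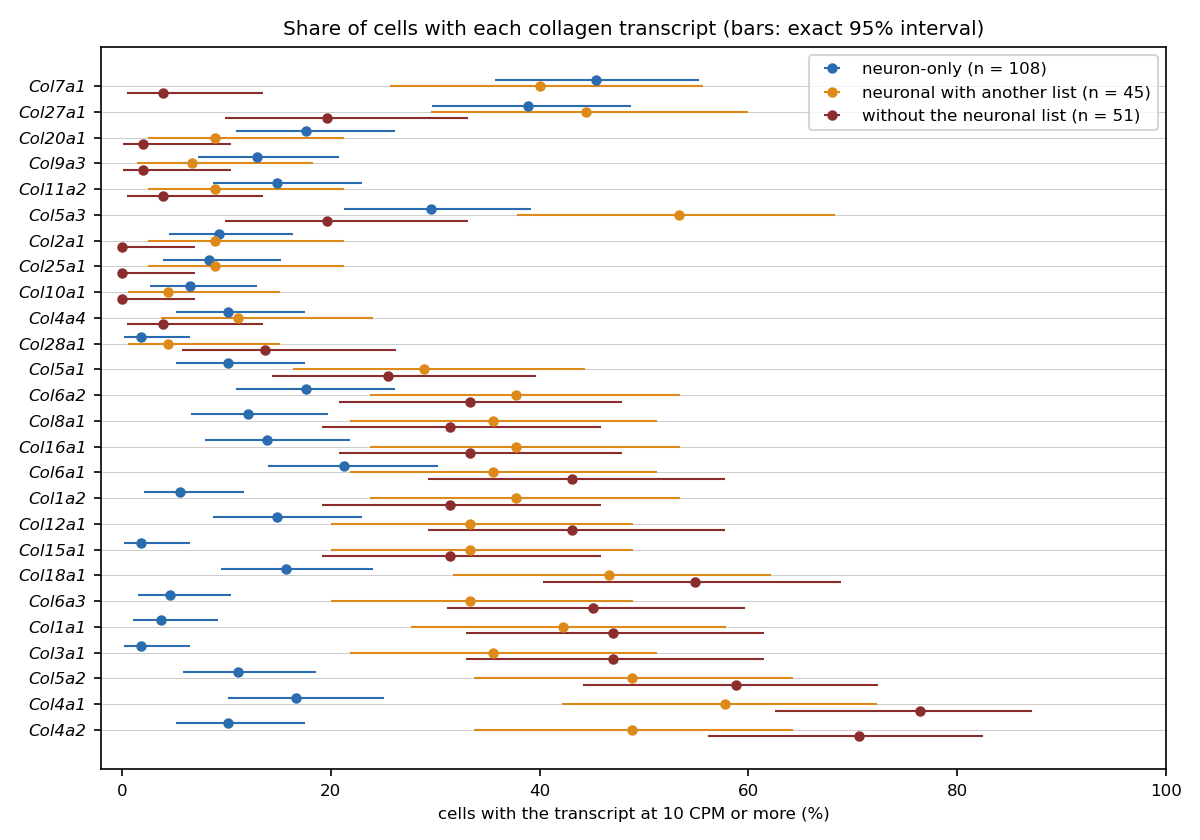
Share of cells with each of 26 collagens at 10 CPM or more in the 3 classes, with exact 95% intervals. Col7a1 stands at 45.4% of neuron-only cells and 3.92% of cells without the neuronal list, and Col4a1 at 16.7% and 76.5%, with neuronal cells that carried another list at 40.0% and 57.8%.

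Of the 44 collagens, 23 were detected in at least 10% of neuron-only cells or of cells without the neuronal list. The other 21 were each detected in between 1 and 20 cells in all. Besides Col2a1, Col25a1, Col10a1 and the type IV chains above they were Col9a1, Col9a2, Col14a1, Col19a1, Col22a1, Col11a1, Col24a1, Col6a4, Col6a5, Col6a6, Col8a2, Col13a1, Col17a1, Col23a1 and Col26a1.

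The second comparison asked which collagens were higher in neuronal cells whose wells also held markers of another type. Neuronal cells with another list were set over neuron-only cells on each plate. Of 26 collagens compared, 8 were higher on all 3 plates (30.8%), against 2.78% of 15378 genes, and none was lower, against 1.72%. All 8 but Col16a1 were among the 9 that were lower in neuron-only cells in the first comparison, which shares the neuron-only cells. The median of the mean ratios was 1.46 over the collagens and -0.29 over all genes.

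Col4a1 was detected in 26 of these 45 cells, with a median of 22.2 CPM and ratios of 3.13, 3.34 and 3.36. Col4a2 was detected in 22, with ratios of 2.61, 3.38 and 3.20. Col1a1 and Col1a2 were detected in 19 and 17, with ratios of 4.10, 2.79 and 3.84 and of 3.74, 1.64 and 4.52. These 4 calls held when each cell was left out in turn, although on plate 2 the ratios of Col4a2 and Col4a1 fell to 1.49 and 2.17 without cell 7 and that of Col1a1 rose to 4.58 without cell 15. Those of Col3a1, Col5a2, Col16a1 and Col18a1 were each lost without 1 cell of plate 2: the ratio there became 0.42 for Col3a1 without cell 59, -0.22 for Col5a2 and 0.87 for Col18a1 without cell 21, and 0.74 for Col16a1 without cell 6. The Col18a1 ratio also rose to 4.45 on plate 2 without cell 9 and fell to 1.80 on plate 3 without cell 50. Col7a1 had ratios of 0.53, -0.36 and 0.54 and Col27a1 of -1.15, -1.15 and -0.56, so neither was called higher alongside the other markers.

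The marker levels that moved with these classes were as follows. The summed CPM of the 8 smooth muscle genes had a median of 25.3 in neuron-only cells (1.42 to 1252), 407.2 in neuronal cells with another list (2.39 to 68970) and 782.6 in cells without the neuronal list (9.16 to 141800). No smooth muscle marker was at 0 in a whole class. The 10 fibroblast genes had medians of 22.6, 102.2 and 133.3 CPM and the 7 glial genes 2.29, 28.1 and 1.03 CPM. Among mesothelial markers, Upk3b was at 0 in all cells without the neuronal list and Lrrn4 in all neuron-only cells. The 13 pan-neuronal genes had medians of 12100, 6948 and 150.4 CPM. Within neuron-only cells the summed collagen level had a Pearson r (log2 scale, a description only) of 0.04 with smooth muscle, 0.36 with fibroblast, 0.40 with glial and 0.43 with pericyte genes. Neuron-only cells thus still held low levels of these markers, and the part of such RNA in their collagen levels was not tested.

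Cells without the neuronal list did not all hold the same collagens. Of the 51, 46 carried another list. The 12 that carried only the smooth muscle list had a median of 1526 collagen CPM (330.5 to 2364), with Col4a2 in 10 of 12 (mean 280.8 CPM), Col1a1 in 9 (250.7 CPM), Col4a1 in 11 (149.2 CPM) and Col1a2 in 7 (115.8 CPM). All 12 were on plates 2 and 3. Col18a1 was detected in only 3 of these 12. The 3 that carried only the endothelial list all had Col18a1 (400.9, 1763 and 219.2 CPM) and Col4a1 (93.8, 524.4 and 204.8 CPM), while Col1a1 reached at most 6.77 CPM in them.

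The 4 cells that carried only the glial list held between 1033 and 4078 collagen CPM. Col5a2 and Col4a1 were detected in all 4, and Col18a1 in 3 at 279.8, 1211 and 1446 CPM. Col28a1 was at 201.7 and 120.3 CPM in the pair on plate 2 and at 0 in the pair on plate 3. Col15a1 was at 239.7 and 99.2 CPM in the same pair on plate 2 and at 8.80 and 0 on plate 3. At the other end, the 4 cells with only the leukocyte list held between 2.02 and 36.9 collagen CPM. Over the 51 the summed collagen level had a Pearson r of -0.73 with the leukocyte list, of 0.44 with smooth muscle, of 0.41 with the pan-neuronal genes and of 0.37 with glia, all on a log2 scale.

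Across the same 51 cells, levels of Col1a1 and Col3a1 had r of 0.53 and 0.46 with the smooth muscle genes and of 0.55 and 0.42 with the pericyte genes. Levels of Col15a1, Col28a1, Col5a2 and Col18a1 had r of 0.66, 0.58, 0.57 and 0.52 with the glial genes and of -0.04, -0.15, -0.18 and -0.20 with smooth muscle. With the pan-neuronal genes their r was 0.52, 0.36, 0.69 and 0.57, so that for Col5a2 and Col18a1 it was higher than with the glial genes. Within the 108 neuron-only cells r with smooth muscle was 0.16 for Col1a1, 0.08 for Col4a1 and 0.01 for Col7a1. For Col7a1, Col20a1, Col2a1, Col25a1 and Col10a1, r with the endothelial genes there was 0.25, 0.35, 0.55, -0.01 and 0.40. With the pericyte genes it was 0.18, 0.43, 0.42, 0.14 and 0.31 in the same order. These correlations describe cells that share plates, pools and the CPM total, and no test was made of them.

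Chains that are built into the same molecule were detected together to different degrees. Col4a1 and Col4a2 lie head to head on chromosome 8 (Col4a1 at chr8:11198423-11312826 on the minus strand, Col4a2 at chr8:11312805-11449287 on the plus strand), and their annotated starts overlap. Both were detected in 54 cells, Col4a1 alone in 29 and Col4a2 alone in 15. Their Pearson r over all cells was 0.77, and it was 0.50, 0.70 and 0.64 within neuron-only cells, neuronal cells with another list and cells without the neuronal list. By plate it was 0.84, 0.70 and 0.77. Where both were detected, the log2 ratio of Col4a1 to Col4a2 per length had a median of 0.28 but ran from -2.98 to 2.89. In neuron-only cells the pair was split more often than not, with both in 5 cells, Col4a1 alone in 13 and Col4a2 alone in 6.

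**Figure D4:**
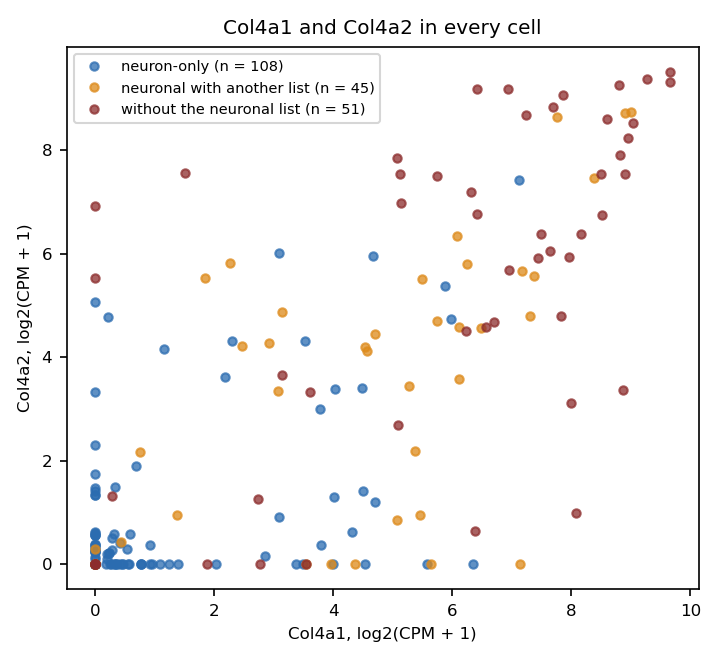
Col4a1 against Col4a2 in every cell, each as log2(CPM + 1) and coloured by class. Cells without the neuronal list gather at the upper right, neuronal cells with another list lie between, and most neuron-only cells sit near the origin or on an axis.

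Col1a1 and Col1a2, which lie on different chromosomes, were both detected in 27 cells, Col1a1 alone in 20 and Col1a2 alone in 12, with an r of 0.66 over all cells. Col6a1 and Col6a2, neighbours on chromosome 10, were both detected in 30 cells and singly in 31 and 23, with an r of 0.43. Col4a3 and Col4a4, which start 72 bases apart on chromosome 1, were both detected in 4 cells, all neuron-only, while Col4a4 was found alone in 14 and Col4a3 alone in 2. Col7a1 and Col27a1 had an r of 0.03 over all cells and were found together in 25, while 44 cells had only Col7a1 and 47 only Col27a1.

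The third comparison set neurons with Chat against neurons with Nos1. Chat encodes the enzyme that makes acetylcholine and Nos1 the enzyme that makes nitric oxide, the main excitatory and inhibitory transmitters of gut motor neurons. Among neuronal cells 56 had only Chat at 10 CPM (23, 17 and 16 by plate), 30 had only Nos1 (3, 14 and 13), 50 had both and 17 neither. Plates 2 and 3, both labelled P2, had at least 5 cells of each class and were compared. Of 27 collagens compared, 8 were called higher in Chat-only cells (29.6%, against 6.33% of 17079 genes) and none was lower (against 4.17%). The medians of the mean ratios were 0.40 over the collagens and 0.05 over all genes. The 8 were Col27a1, Col5a3, Col5a1, Col1a2, Col15a1, Col17a1, Col3a1 and Col16a1.

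Of these, only Col27a1 stayed called when each of the 60 cells was left out in turn. It lies at chr4:63214004-63334991 on the plus strand. On plate 2 its mean was 87.9 CPM in Chat-only cells (median 3.91, highest 508.3) and 15.2 CPM in Nos1-only cells (median 0.651, highest 64.8), a log2 ratio of 2.46. On plate 3 the means were 167.9 CPM (median 14.7, highest 1085) and 20.9 CPM (median 0.248, highest 123.9), a ratio of 2.94. The lowest value without 1 cell on plate 3 was 2.30, without cell 60. Both classes included cells at 0, so they overlapped, with the highest values in Chat-only cells. By share of cells the classes were closer, with Col27a1 in 30 of 56 Chat-only cells (53.6%, interval 39.7 to 67.0%) and 10 of 30 Nos1-only cells (33.3%, 17.3 to 52.8%).

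On plate 1, with 3 Nos1-only cells, the means were 169.1 CPM in Chat-only and 88.3 CPM in Nos1-only cells, the latter from 1 cell at 264.9 CPM. Among neuron-only cells the ratios were 2.61 and 4.04 on plates 2 and 3. When cells were classed by a Chat to Nos1 ratio of at least 4 in either direction, the ratios were 1.32, 2.16 and 2.54 on plates 1, 2 and 3. In cells with both Chat and Nos1 the means were 56.0, 21.8 and 33.1 CPM on the 3 plates, with 18 of 50 cells detected. The glial and fibroblast genes had r of 0.32 and 0.30 with Col27a1 over the 108 neuron-only cells.

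**Figure D5:**
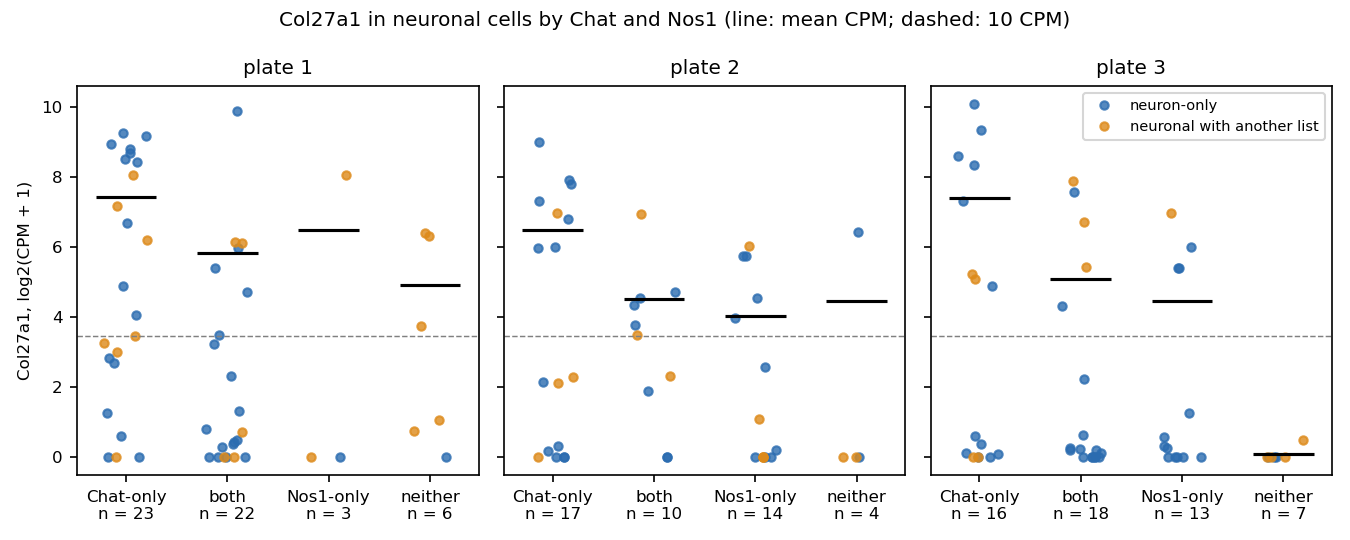
Col27a1 as log2(CPM + 1) in neuronal cells by Chat and Nos1 detection on each plate, with neuron-only cells and neuronal cells with another list in separate colours, black lines at the mean CPM and a dashed line at 10 CPM. Chat-only means of 87.9 and 167.9 CPM on plates 2 and 3 exceed the Nos1-only means of 15.2 and 20.9 CPM, and each class includes cells at 0.

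Col5a3 was detected in 28 of 56 Chat-only cells (50.0%, interval 36.3 to 63.7%) and in 3 of 30 Nos1-only cells (10.0%, 2.11 to 26.5%). Its means were 14.8 against 0.633 CPM on plate 2 and 41.0 against 17.3 CPM on plate 3, with ratios of 3.27 and 1.20. The latter fell to 0.92 without cell 19 and to 0.91 without cell 53 but rose to 3.15 without cell 29, a Nos1-only cell. Col5a1 was detected in 12 Chat-only cells (21.4%) and in no Nos1-only cell, for which the limit by the same rule of 3 cells is 10.0% of 30. Its ratios were 1.27 and 3.59, the first falling to 0.64 without plate 2 cell 19 and to 0.99 without cell 15. Both calls of type V chains thus turned on single cells.

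The other calls were thinner still. On plate 2 Col3a1 fell from 2.02 to -0.83 and Col1a2 from 1.30 to 0.83 without cell 59, and Col15a1 from 2.19 to 0.81 without cell 7. On plate 3 the Col3a1 ratio of 1.36 became 0.57 without cell 14, 0.43 without cell 16 and 4.71 without cell 64, and that of Col15a1 fell from 2.61 to 1.08 without cell 27. The Col16a1 calls, at 1.09 and 1.75, were lost without any 1 of 15 cells, and that of Col17a1 without plate 2 cell 41 or plate 3 cell 53, each the sole cell at 10 CPM of its plate and class. All Nos1-only cells were at 0 for Col17a1, so that its ratios depended on the pseudocount. Among neuron-only cells the mean ratios of Col3a1, Col15a1 and Col16a1 were -0.52, -0.03 and -0.29. The set of collagens called there was not the same, and the share over all genes called there is not given. Only Col27a1, Col5a3, Col5a1 and Col17a1 were among both sets. The others were Col6a1 (ratios of 4.52 and 2.75), Col6a2 (4.47 and 3.08), Col1a1 (2.68 and 3.81) and Col8a1 (2.66 and 4.11), whose means in Nos1-only cells were below 1 CPM on both plates, so that these ratios depended on the pseudocount.

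Marker levels on plates 2 and 3 were as follows. Of 33 Chat-only cells 7 carried the smooth muscle list, as did 6 of the 27 with Nos1, with median summed levels of 59.3 CPM (7.37 to 16060) and 29.1 CPM (5.42 to 9070). The fibroblast genes had medians of 89.1 and 91.7 CPM and the endothelial genes of 2.16 and 0.357 CPM. The endothelial list was carried in 2 and 0 cells. The glial genes had medians of 5.64 CPM (0 to 306.5) and 0.613 CPM (0 to 424.6), and their list was found in 0 and 1 cells. The pericyte genes had medians of 2.05 CPM (0 to 694.4) and 0.200 CPM (0 to 208.5), and no cell of either class held their list. Higd1b and Lrrn4 were at 0 in all Chat-only cells and Higd1b, Pdgfra and Tyrobp in all Nos1-only cells, and the part of such RNA in the calls was not tested. Median depth on plates 2 and 3 was 4204531 and 4986717 reads in Chat-only and 5673803 and 6885187 reads in Nos1-only cells.

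Col7a1 showed another pattern, which was picked out after its values were seen. It was detected in 35 of 50 neuronal cells with both Chat and Nos1 (70.0%, interval 55.4 to 82.1%), against 20 of 56 with only Chat (35.7%, 23.4 to 49.6%), 9 of 30 with only Nos1 (30.0%, 14.7 to 49.4%) and 3 of 17 with neither (17.6%, 3.80 to 43.4%). By plate, cells with both had shares of 72.7%, 80% and 61.1%. In Chat-only cells it was 34.8%, 47.1% and 25.0%, and in Nos1-only cells 66.7% (2 of 3), 35.7% and 15.4%. Among neuron-only cells alone the counts were 27 of 39 with both, 16 of 41 with only Chat and 5 of 22 with only Nos1. Median depth was 4254672 reads in cells with both, 4181979 in Chat-only, 6261658 in Nos1-only and 1045687 in cells with neither. By mean CPM the classes were less distinct, at 40.7 with both, 17.8 with only Chat and 27.3 with only Nos1, the last raised by 1 cell at 447.3 CPM.

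A cell makes collagen with a set of enzymes, chaperones and proteases that serve many chains, and 6 lists of such genes and of collagen partners, 70 genes in all, were read in the first comparison. Of 62 that could be compared, 21 were lower and 2 higher in neuron-only cells by the same rule, with a median of the mean ratios of -1.06, against 8.46% lower and 19.9% higher and a median of 0.40 over all genes. Some of the basic enzymes were nevertheless found in most neurons, P4hb and Plod3 among them. Of the 13 prolyl and lysyl hydroxylases and collagen glycosyltransferases, P3h1 and Crtap, partners in prolyl 3-hydroxylation, were lower (Crtap ratios -2.31, -2.77 and -1.99) and Colgalt2, a collagen galactosyltransferase, was higher (2.55, 1.21 and 1.64). P4hb, a subunit of prolyl 4-hydroxylase, was detected in 97.2% of neuron-only cells (median 238.4 CPM) and Plod3, a lysyl hydroxylase, in 94.4% (median 89.4 CPM).

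Of the 10 chaperone and secretion genes, Serpinh1, Fkbp10 and Kdelr3 were lower. Serpinh1 encodes HSP47, the chaperone dedicated to collagen. It was detected in 57 of 108 neuron-only cells (median 15.7 CPM) and 42 of 51 cells without the neuronal list (521.6 CPM), with ratios of -3.53, -2.74 and -3.97. Fkbp10 was detected in 7 of 108 and 33 of 51 cells, with ratios of -3.30, -3.47 and -6.25, and Kdelr3 in 4 and 23. Kdelr2, Ppib and Mia3 of the same list were each detected in at least 98 neuron-only cells and did not pass.

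Of 10 processing and cross-linking genes compared, 5 were lower: Bmp1, which cuts procollagen, its enhancer Pcolce2, and the cross-linking enzymes Lox, Loxl1 and Loxl2. Lox was detected in 1 of 108 neuron-only and 12 of 51 other cells. Its ratio on plate 3 was -1.07, from means of 0.0139 and 1.125 CPM. Pcolce2 was detected in 15 of 108 and 9 of 51 cells, with ratios of -1.66, -1.09 and -1.04. The members detected most often in neuron-only cells were Loxl3 (54 cells) and Adamts2 (30), neither of which passed. Of 9 collagen receptors compared, Itga1, Itga2, Itgb1 and Ddr2 were lower. Itgb1 was still found in 100 neuron-only cells, with ratios of -1.97, -1.86 and -1.92, as was the receptor kinase Ddr1, which did not pass (means of 181.7 CPM in neuron-only cells and 108.4 CPM in cells without the neuronal list).

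Of 8 degradation genes compared, Mmp14, a membrane collagenase, was lower, with 6 of 108 against 37 of 51 cells and ratios of -5.58, -4.12 and -7.52. Timp2 and Ctsl were detected in 97.2% and 96.3% of neuron-only cells and did not pass. Of 12 partners of basement membranes compared, the laminin chains Lama4, Lamb1, Lamb2 and Lamc1, nidogen Nid1 and perlecan Hspg2 were lower. Lama4 (-2.76, -1.01 and -1.06) and Lamc1 (-1.36, -2.73 and -1.13) came close to the threshold on some plates. Hspg2 was detected in 8 of 108 and 39 of 51 cells, with ratios of -5.83, -4.46 and -4.75. Lamc3, another laminin chain, was higher, with 19 of 108 against 1 of 51 cells and ratios of 4.32, 2.83 and 3.10, of which the first and last are against 0 reads and depend on the pseudocount. Agrn, which encodes agrin, was detected in 55 neuron-only cells and Lamc1 in 51.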

How the data were processed

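Single picked cells were profiled by polyA RNA sequencing without molecular identifiers. The deposited values are log2(RPKM + 1) per gene and cell, on mm10 per the submitters' processing notes. The aligner, the counter and its strand setting were not given in the sources used here. That the logarithm is of base 2 with 1 added follows from whole reads being recovered. Whole read counts were recovered from the deposited values with GENCODE M21 exon lengths (31368 genes) or the smallest length giving whole reads (6267 genes, among them Col20a1, Col2a1, Col8a1, Col11a2 and Col17a1, whose counts and CPM are therefore minimum estimates). All 2375655 values above 0 were whole within 1e-04 of 1 read or of the count, whichever is larger. A length was accepted only where it gave whole reads, so this share was fixed by the method and does not check the counts. The lengths of the 31368 genes came from the annotation and were not fitted. Sums matched the implied totals within 0.9996 to 1.00004.

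No test was run, since cells of a plate are not replicates and no label names an animal. Classes were compared within plates by log2 ratios of mean (CPM + 1), which understate differences of low genes. Genes needed a mean of 1 CPM in either class on each plate. On simulated cells of the first comparison, 0%, 88%, 100% and 100% of 50 genes each changed by log2 sizes of 1, 2, 3 and 5 were called, and 0% of 14644 unchanged genes. The changed genes were drawn from those well above the filter on each plate. Each simulated gene varied between cells with an SD equal to its mean. Many collagens were near 0 in most cells and high in a few, so these shares do not describe their calls. No 2 cells of a plate (6846 pairs) held the same counts to within sampling noise of reads, the lowest chi-square per degree of freedom being 5.51. Amplification adds noise beyond that, so this cannot show that no 2 libraries share a cell. Plate 1 cells 31 and 39, both neuronal with another list, had close collagen levels. Col6a3 was at 232.3 and 224.2 CPM in them and Col27a1 at 82.6 and 79.0 CPM. They were counted as separate cells. Collagens detected in at least 10% of neuron-only cells or of cells without the neuronal list, every collagen or pathway gene meeting the size rule, and the 2 members of each pathway list detected most often in neuron-only cells were named. Others were named after their values were seen. The collagens and lists were chosen with earlier results of these data known. Python 3.11.15, numpy 2.4.6, pandas 2.3.3, scipy 1.17.1 and matplotlib 3.10.9 were used.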

Additional observations from a re-analysis of the deposited data

Results flagged for a closer look

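Some collagens had a log2 ratio beyond 1 in one direction on 1 plate and in the other direction on another. The difference was not tested in any of these cases, because each plate is 1 sample. For neuron-only cells over cells without the neuronal list, Col11a1 ranged from -3.21 to 1.13, Col6a1 from -3.45 to 1.08 and Col23a1 from -4.15 to 2.23. For Chat-only over Nos1-only cells, Col9a2 ranged from -2.93 to 2.68, Col4a1 from -1.37 to 1.15, Col4a2 from -2.45 to 1.77, Col6a1 from -1.97 to 1.16, Col1a1 from -1.32 to 3.16 and Col14a1 from -1.48 to 2.28.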

How the results depend on the processing

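No paired analysis was possible because cell numbers only name the cells of a plate and no result comes from a test. The median summed collagen level of neuron-only cells (129.6 CPM) stayed between 91.6 and 155.2 CPM under all alternatives run, and the 9 collagens lower in neuron-only cells numbered 8 to 12, or 9 to 17 with a plate left out (17 without plate 1). The 5 higher ones became 1 with detection at 50 CPM, 0 with markers above 1% of the plate's highest count, 3 in cells with at least 1000000 reads, 2 with 25% of another list, 0 with a pseudocount of 10, 3 without the highest cell of each class and plate, and 0 at a log2 size of 2; without a plate they numbered 5 to 9 (9 without plate 3). The 8 collagens higher in neuronal cells with another list became 15 with detection at 1 CPM, 4 with a pseudocount of 10 and 4 at a log2 size of 2, and 10 to 15 without a plate (15 without plate 2). The 8 for Chat-only over Nos1-only became 3 at 1 CPM, 1 with a pseudocount of 10, 2 at a log2 size of 2 and 3 with a Chat to Nos1 ratio of 4, and 8 to 24 without a plate (19 without plate 2 and 24 without plate 3, each leaving 1 plate). The median of 3 collagens became 1 at 50 CPM and 6 at 1 CPM, and 3 to 4 without a plate. Pseudocounts and sizes change the ratio or its threshold, and the cause was not tested for the other settings. The number of collagens compared and the share of all genes called can also change with the setting. Neither is given here, so these counts alone do not set collagens apart from other genes. In neuron-only cells the mean Chat-only to Nos1-only ratio reversed for Col3a1 (-0.52), Col15a1 (-0.03) and Col16a1 (-0.29), while that of Col27a1 ran from 2.01 to 3.32 over its alternatives and stayed called. Of 392 ratios of single collagens, 298 kept direction and call, 91 kept direction only and 3 reversed. Some of those kept could not have changed, Col27a1 included. Dropping the filter alters no ratio and loses no call. For Chat-only over Nos1-only, leaving out plate 1 or taking 25% of another list left the compared cells the same. At 1 CPM the first comparison could not be made, since 1 cell lacked the neuronal list. Depth bounds shares of 0 and the low collagens, which rest on few cells.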
